A study of Mus musculus with 9 samples.

Results

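The 10 genes described here belong to the p53 pathway and to the mitochondrial route of programmed cell death: Trp53, Mdm2, Cdkn1a, Ccng1, Btg2, Apaf1, Bak1, Bax, Bbc3 and Sesn2. They were chosen by symbol, without use of measured values, and all 10 were found among the 21553 genes with counts. The libraries are polyA RNA-seq of cultured N2A cells, which derive from a mouse neuroblastoma, harvested 48 hours after transfection with a pool of small interfering RNAs (siRNAs). A first experiment holds 1 library each after a pool against Mbnl1 and Mbnl2 together, a pool against Nacc1, and a non-targeting pool (its control). A second experiment holds 2 libraries each, lettered a and b, after a pool against Srrm4, a pool against Zfp871, and a non-targeting pool. All 9 libraries received transfection reagent and siRNA, and no untransfected cells are among them. No source used here says whether libraries a and b came from separate cultures, so the p-values measure the spread between these libraries, which may be technical.

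In unstressed cells the transcription factor p53 (Trp53) is kept low by the ubiquitin ligase Mdm2, itself a product of a p53 target gene. Stabilised p53 activates genes that act on the cell cycle (Cdkn1a, which encodes the inhibitor p21, Ccng1 and Btg2). It also activates genes that temper growth signalling (Sesn2) and that start cell death. In the death branch Bbc3 (PUMA) relieves the block on Bax and Bak1, these permeabilise the mitochondrial outer membrane, and released cytochrome c assembles with Apaf1 into the apoptosome that activates caspases. Srrm4, Mbnl1 and Mbnl2 are regulators of alternative splicing, Nacc1 is a transcriptional regulator and Zfp871 is a zinc finger protein.

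Because p53 acts through a DNA motif, the RefSeq promoters of the genes (build GRCm38.p6, 250 bases before to 50 after each start) were searched for the p53 half-site consensus, a 10-base motif that reads the same on both strands, with every base matching. All 10 genes were matched, with 13 promoter entries, and 5 genes held a match in an entry. Of the 13 entries 5 held one, against 8.36% of all 32851 entries, and the share of genes with a match in any entry was 9.55% over the whole table. The half-sites are in capitals in these stretches, each read 5′ to 3′ on the strand of the gene.
Cdkn1a, chr17:29090881-29090962, plus strand: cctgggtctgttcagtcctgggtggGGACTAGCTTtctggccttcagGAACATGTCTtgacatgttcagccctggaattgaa
Ccng1, chr11:40755437-40755496, minus strand: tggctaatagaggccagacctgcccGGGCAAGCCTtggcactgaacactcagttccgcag
Mdm2, chr10:117710910-117710969, minus strand: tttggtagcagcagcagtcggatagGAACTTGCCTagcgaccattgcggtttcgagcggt
Bax, chr7:45467065-45467124, minus strand: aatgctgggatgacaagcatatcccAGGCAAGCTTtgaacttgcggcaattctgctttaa
Trp53, chr11:69580259-69580318, plus strand: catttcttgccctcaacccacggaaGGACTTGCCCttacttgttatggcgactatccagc
The Cdkn1a entry shown held 2 half-sites, which start 73 and 51 bases before its transcription start. Another Cdkn1a entry, with a different start (chr17:29093519-29093818), held 0. The share of all entries with 2 or more was 0.359%. The windows of Btg2, Sesn2, Bbc3, Apaf1 and Bak1 held none, which says only that these letters are absent there. Binding of p53 was not measured, and genes with and without a half-site are both found among those that changed below.

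Levels of different genes were compared per transcript length, in the authors' deposited corrected RPKM (cRPKM), in the 3 libraries of the first experiment. Bax lay highest at 106 to 116 cRPKM, then Trp53 at 52.9 to 60.4 and Mdm2 at 40.4 to 44.5. Sesn2 (26.4 to 53.8) overlapped both Trp53 and Mdm2, and after Nacc1 knockdown it stood above Trp53 (53.8 and 52.9). Cdkn1a (12.4 to 22.9) lay below these genes. Ccng1 (6.16 to 14.6) overlapped Cdkn1a above it and Bak1 (6.82 to 11.5) below it, and Apaf1 (5.34 to 6.07) overlapped Bbc3 (2.91 to 6.13). Btg2 was lowest in every library, at 0.27 to 1.30 cRPKM. The second experiment kept Bax, Trp53 and Btg2 at the same ends of the order, with authors' group means of 111 to 127, 79.1 to 92.0 and 1.12 to 1.45 cRPKM. Bak1 was higher there, with authors' means of 15.1 cRPKM in the control, 37.8 after Srrm4 knockdown and 29.8 after Zfp871 knockdown. The difference between the experiments was not tested.

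Libraries held 44186088 to 63715449 counts. The siRNA targets were all reduced where they were targeted. Srrm4 had 28.3 and 26.1 CPM (counts relative to library size, scaled by TMM factors) against 66.8 and 96.7 in the control, and Zfp871 had 7.17 and 5.08 against 17.6 and 26.2. Mbnl1 had 45.2 CPM against 124.2, Mbnl2 had 18.2 against 65.7 and Nacc1 had 52.0 against 208.5, in 1 library each. Of 12 markers of sympathetic neuroblasts, the labelled cell type, 10 lay above 1 CPM in every library. Summed over the list, glial markers came to 4.23 to 7.81 CPM and immune markers to 0.259 to 1.30 CPM. The sympathetic list summed to 3701 and 3384 CPM in the second control, 3144 and 3104 after Srrm4 knockdown and 2971 and 3046 after Zfp871 knockdown. Of 11 tested, Hand2 was called lower after Srrm4 knockdown, and Phox2a, Dbh and Stmn2 after Zfp871 knockdown. Of 9 mesenchymal markers only Fn1, which encodes fibronectin, lay above 1 CPM in every library. It had 540 and 588 CPM in the second control, 424 and 412 after Srrm4 knockdown and 264 and 233 after Zfp871 knockdown, where it was called lower. The part of these markers in the results below was not tested. In bulk RNA, fewer cells of a kind and less RNA per cell cannot be told apart.

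**Figure D1:**
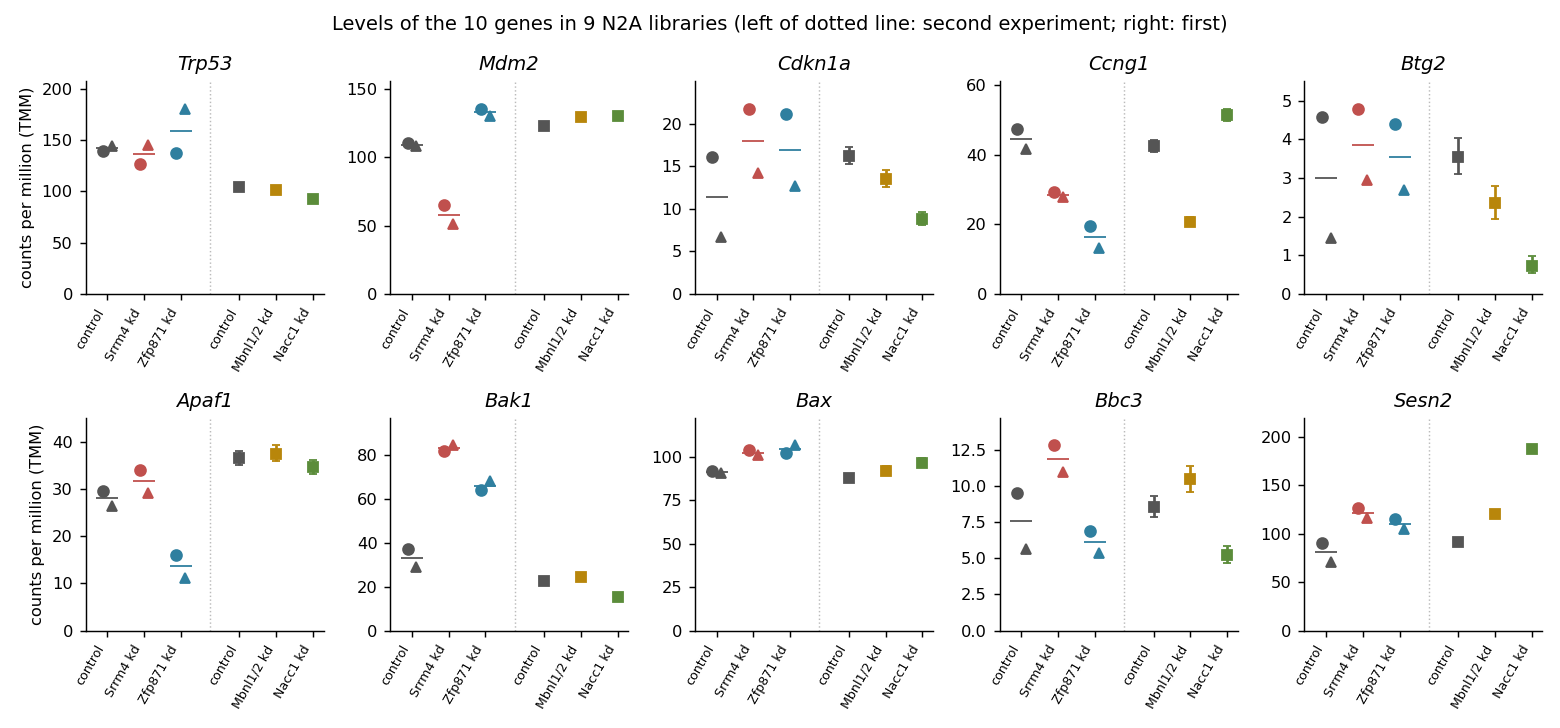
Level of each gene in every library (CPM scaled by TMM factors, linear axis from 0). In the second experiment circles are library a, triangles are library b and the line is their mean; in the first experiment squares are single libraries with 95% Poisson intervals. Bak1 is higher in all 4 knockdown libraries of the second experiment than in either control library, and Ccng1 and Apaf1 are lowest in the Zfp871 knockdown.

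After Srrm4 knockdown the pore-forming effector Bak1 rose 2.51-fold and Mdm2, the inhibitor of p53, fell by 0.91 on the log2 scale. These 2 of the 10 genes passed an adjusted p of 0.05, where 4.70% of the 12378 tested genes did (1.41% higher and 3.29% lower). Both libraries lay above or below both control libraries for 6 of the 10 genes, against 53.7% of all tested genes, a share near the background.

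Mdm2 had 110.4 and 108.1 CPM in the control libraries and 64.9 and 51.3 CPM after Srrm4 knockdown. Both knockdown libraries lay well below both controls (log2 fold change -0.91, SE 0.124, edgeR adjusted p = 0.0250). After Zfp871 knockdown Mdm2 stood at 135.7 and 130.6 CPM, above both controls, and this difference was not called (0.29, SE 0.123, edgeR adjusted p = 0.251). The direct contrast of the knockdowns was called, with Mdm2 2.29-fold higher in the Zfp871 knockdown (edgeR adjusted p = 0.00941). Trp53 itself had 139.9 and 144.2 CPM in the control, 127.2 and 145.5 after Srrm4 knockdown, and 137.8 and 180.8 after Zfp871 knockdown. The 3 groups overlapped, and no contrast of Trp53 was called (edgeR adjusted p = 0.839, 0.568 and 0.356 for Srrm4 knockdown, Zfp871 knockdown and the direct contrast).

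Among the genes that act on the cell cycle, Ccng1, which encodes cyclin G1, changed most. It had 47.3 and 41.7 CPM in the control libraries, 29.1 and 27.8 after Srrm4 knockdown and 19.4 and 13.05 after Zfp871 knockdown. The 3 groups did not overlap. The fall after Zfp871 knockdown was called (-1.46, SE 0.193, edgeR adjusted p = 0.0261), as was the direct contrast with the Srrm4 knockdown (-0.81, SE 0.191, edgeR adjusted p = 0.0454). The difference after Srrm4 knockdown was not called (-0.64, SE 0.188, edgeR adjusted p = 0.102). In the authors' deposited table the FDR of that difference was 0.0469.

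Cdkn1a and Btg2 varied more between libraries a and b than between groups. Cdkn1a had 16.0 and 6.72 CPM in the control, 21.7 and 14.2 after Srrm4 knockdown and 21.1 and 12.6 after Zfp871 knockdown. Btg2, an antiproliferative gene, had 4.58 and 1.44, 4.79 and 2.94, and 4.40 and 2.70 CPM in the same order. Library a was the higher of the pair in all 3 groups for both genes, and the groups overlapped. Neither gene was called in any contrast when the letters were left out of the fit, and the SE of their log2 fold changes was 0.448 to 0.561. Across all tested genes library a was not the higher one in general: 49.4%, 48.7% and 50.1% of genes were lower in b than in a in the control, Srrm4 and Zfp871 groups. Of the genes related to the 10, the BH3-only gene Bnip3 showed the same order, with 236 and 42.9 CPM in control a and b, 308 and 53.04 after Srrm4 knockdown and 219.7 and 50.9 after Zfp871 knockdown. No source used here says what the letters stand for. Between libraries of the same letter, Cdkn1a was higher than the control by 0.44 (a) and 1.08 (b) on the log2 scale after Srrm4 knockdown and by 0.39 and 0.91 after Zfp871 knockdown. For Btg2 these differences were 0.07 and 1.01, and -0.06 and 0.89.

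Sesn2, which encodes sestrin 2, had 89.9 and 71.1 CPM in the control, 126 and 116 after Srrm4 knockdown and 115 and 105 after Zfp871 knockdown. All 4 knockdown libraries lay above both controls, and neither contrast was called (0.59, SE 0.133, edgeR adjusted p = 0.0605; 0.45, SE 0.133, edgeR adjusted p = 0.127). The FDR in the authors' deposited table was 0.00971 and 0.0807.

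In the death branch, the pore-forming proteins are encoded by Bak1 and Bax. Bak1 had 37.4 and 28.9 CPM in the control, 82.0 and 84.5 after Srrm4 knockdown, and 64.0 and 68.1 after Zfp871 knockdown. It rose in both knockdowns: the log2 fold change was 1.33 (SE 0.135, edgeR adjusted p = 0.0184) and 0.99 (SE 0.134, edgeR adjusted p = 0.0275). The 2 contrasts share the control libraries. In the direct contrast Bak1 was lower in both libraries of the Zfp871 knockdown, and this difference was not called (-0.33, SE 0.132, edgeR adjusted p = 0.157). Bax had 91.8 and 90.8 CPM in the control, 103.6 and 101.2 after Srrm4 knockdown and 102.2 and 106.5 after Zfp871 knockdown. The knockdown libraries were all above the controls, by 1.12-fold and 1.14-fold, and neither difference was called (edgeR adjusted p = 0.256 and 0.234).

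Apaf1, the scaffold of the apoptosome, had 29.7 and 26.5 CPM in the control, 34.1 and 29.2 after Srrm4 knockdown and 16.1 and 11.1 after Zfp871 knockdown. It fell in the Zfp871 knockdown (-1.05, SE 0.195, edgeR adjusted p = 0.0492) and was lower there than in the Srrm4 knockdown (-1.22, SE 0.195, edgeR adjusted p = 0.0195). The Srrm4 knockdown did not change it beyond the spread (0.17, SE 0.191, edgeR adjusted p = 0.629).
Bbc3, the p53-induced activator, had 9.56 and 5.65 CPM in the control, 12.8 and 11.0 after Srrm4 knockdown and 6.88 and 5.34 after Zfp871 knockdown. The Srrm4 knockdown libraries lay above all others. No contrast of Bbc3 was called in the main fit (edgeR adjusted p = 0.214, 0.570 and, for the direct contrast, 0.0781). DESeq2 and other alternatives given at the end called the direct contrast.

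In the Zfp871 knockdown 3 of the 10 genes were called, Ccng1 and Apaf1 lower and Bak1 higher, against 2.89% of all tested genes (0.751% higher and 2.14% lower). Both libraries lay apart from both controls for 6 of the 10, against 50.5% of all tested genes. In the direct contrast 3 of the 10 were called, Mdm2 higher and Ccng1 and Apaf1 lower in the Zfp871 knockdown, against 11.1% of all tested genes (5.53% higher and 5.57% lower). Both libraries of one knockdown lay apart from both of the other for 6 of the 10, against 59.4%. The authors' deposited table has an FDR under 0.05 for 4 of the 10 genes after Srrm4 knockdown (Mdm2, Ccng1, Bak1 and Sesn2), against 6.90% of 15035 genes, and for 3 after Zfp871 knockdown (Ccng1, Apaf1 and Bak1), against 5.03%. The calls rest on few libraries: without control library b, no gene was called in either contrast with the control. Without either Zfp871 knockdown library none was called in any of the 3 contrasts, and without Srrm4 knockdown library b none in the 2 contrasts that use it. With only the 4 libraries compared, no gene at all was called after Srrm4 knockdown (edgeR; 2693 genes and 4 of the 10 at an unadjusted p under 0.05). In the fits without 1 library that called none of the 10, 3 to 5 of them had an unadjusted p under 0.05.

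**Figure D2:**
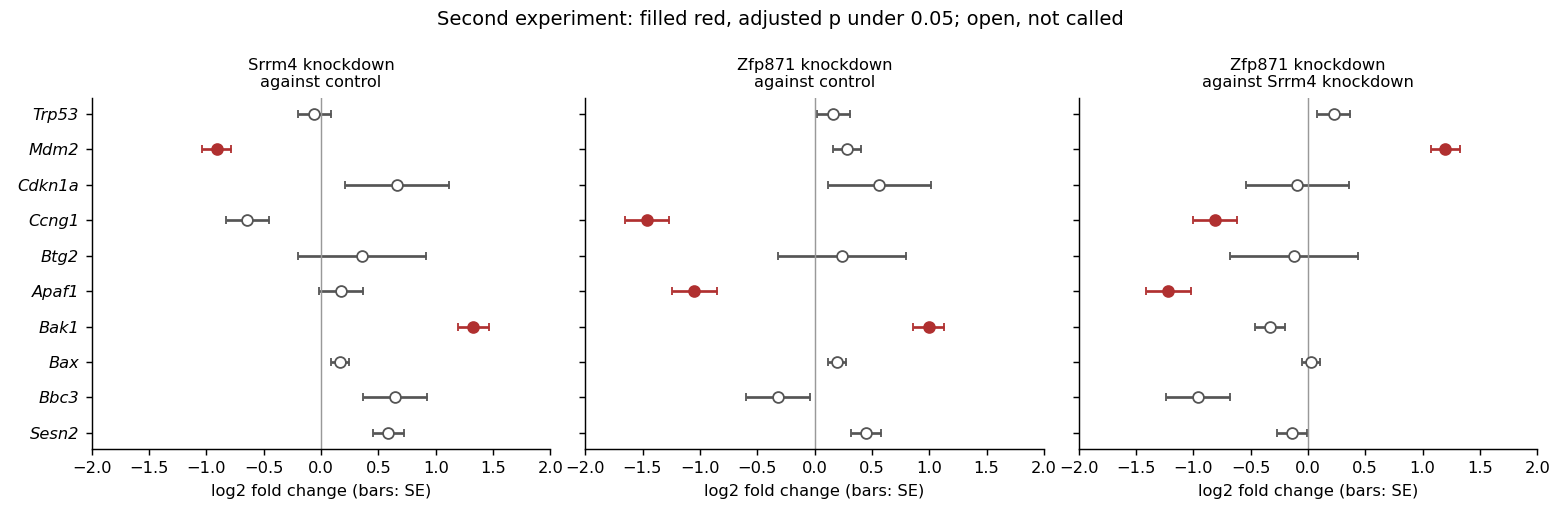
Log2 fold changes of the 10 genes in the 3 contrasts of the second experiment, with SE bars. Filled red points passed an adjusted p of 0.05 (edgeR): Mdm2 and Bak1 after Srrm4 knockdown, Ccng1, Apaf1 and Bak1 after Zfp871 knockdown, and Mdm2, Ccng1 and Apaf1 between the knockdowns.

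Other genes of the pathway were followed through lists. Of 30 further p53 target genes, 22 could be tested and none was called in either knockdown (edgeR). At an unadjusted p under 0.05 there were 6 after Srrm4 and 4 after Zfp871 knockdown, and DESeq2 called 3 and 1. Their median log2 fold change was -0.11 after Srrm4 and -0.18 after Zfp871 knockdown, beside a median of -0.00 and -0.01 over all tested genes. Those that differed most were Trp53inp1 (-1.47, edgeR adjusted p = 0.144) and Gdf15 (0.90, 0.148) after Srrm4 knockdown, and Sesn1 (-0.61, 0.0540) after Zfp871 knockdown. Sesn1 had 25.5 and 27.1 CPM in the control and 18.5 and 16.1 in that knockdown. Trp53inp1 was near the floor, with 1.49 and 0.751 CPM in the control and 0.552 and 0.267 after Srrm4 knockdown (SE 0.506). Between the knockdowns Ei24 was higher (0.61) and Phlda3, which encodes an inhibitor of Akt signalling, lower (-0.55) in the Zfp871 knockdown, and these 2 were called (edgeR adjusted p = 0.0196 and 0.0442).

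Of 19 regulators and relatives of p53, 17 were tested. After Srrm4 knockdown 2 fell, the checkpoint kinase Chek1 (36.6 and 40.4 CPM in the control, 25.4 and 25.1 after knockdown; -0.61, SE 0.114, edgeR adjusted p = 0.0416) and the deacetylase Sirt1 (47.7 and 56.4 CPM against 27.3 and 33.0; -0.79, SE 0.131, edgeR adjusted p = 0.0333). After Zfp871 knockdown none of the 17 was called (edgeR; 2 at an unadjusted p under 0.05, and 1 by DESeq2). In the direct contrast 3 were called. Chek1 (0.73, edgeR adjusted p = 0.0189) and Sirt1 (0.81, edgeR adjusted p = 0.0196) were higher in the Zfp871 than in the Srrm4 knockdown, and the acetyltransferase Kat5 was lower (-0.50, SE 0.0860, edgeR adjusted p = 0.0231).

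The pro-survival BCL2 genes, and the BH3-only genes listed together with Bok, gave no call in the second experiment (edgeR). Of these 2 lists, 4 of 5 and 7 of 10 genes were tested. At an unadjusted p under 0.05 there were 2 and 2 after Srrm4 knockdown and 0 and 1 after Zfp871 knockdown. DESeq2 called none of the former and 1 of the latter in each knockdown. Mcl1 stood at 147 and 160 CPM in the control, 139 and 161 after Srrm4 knockdown and 178 and 179.7 after Zfp871 knockdown. The 16 genes of the apoptosome, the caspases and their inhibitors were all tested, and their median log2 fold change was -0.07 after Srrm4 and -0.04 after Zfp871 knockdown. None of the 16 was called after Zfp871 knockdown (edgeR; 3 at an unadjusted p under 0.05, and 1 by DESeq2). Of 9 relatives of the 10 genes, such as Ccng2 and Btg1, 7 were tested and none was called (edgeR; 1 and 3 at an unadjusted p under 0.05, and 1 and 1 by DESeq2).

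In the first experiment each group holds 1 library, so there is no test, and a gene is counted when its log2 fold change was 1 or more in either direction and a library of the pair had 50 counts or more. After knockdown of Mbnl1 and Mbnl2 this held for Ccng1 alone of the 10 genes, against 1.02% of 11604 genes (0.758% higher and 0.259% lower). Ccng1 had 42.5 CPM in the control (2670 counts) and 20.7 CPM after the knockdown (1068 counts), a log2 fold change of -1.04. With scaling by total counts in place of TMM the value was -0.97, short of the threshold. Btg2 had 3.55 CPM in the control and 2.34 after the knockdown (-0.59), Cdkn1a 16.2 and 13.5 (-0.26), Bbc3 8.56 and 10.5 (0.29), and Sesn2 91.8 and 120.1 (0.39). Trp53, Mdm2, Apaf1, Bak1 and Bax lay within 0.131 log2 units of the control. The counting intervals of 6 of the 10 genes did not overlap the control's, against 51.1% of all genes.

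After Nacc1 knockdown 2 of the 10 genes passed the size rule, against 3.38% of 11580 genes (0.406% higher and 2.97% lower). Btg2 had 223 counts in the control and 44 after the knockdown, or 3.55 CPM (95% Poisson interval 3.10 to 4.04) and 0.733 CPM (0.533 to 0.984), a log2 fold change of -2.22. Sesn2 went the other way, from 91.8 to 187 CPM (1.03). Bbc3 (8.56 and 5.23 CPM, -0.71), Cdkn1a (16.2 and 8.81, -0.87) and Bak1 (22.5 and 15.3, -0.55) were lower without passing the rule, and Ccng1 was at 51.3 CPM (0.27). Trp53, Mdm2, Apaf1 and Bax had log2 fold changes of -0.17, 0.09, -0.08 and 0.14. In the other lists Bnip3 (-1.57) passed it, as did Pdgfrb (-1.61) of the mesenchymal markers. After Mbnl1 and Mbnl2 knockdown only Cd68 (1.21), an immune marker, did so in the other lists. Cd68 was near the floor, with 0.525 CPM in the control and 1.26 after that knockdown. Bnip3, Btg2, Cdkn1a and Bbc3 also varied between libraries a and b of the second experiment. Between control libraries a and b there, the log2 difference was 1.64 for Btg2, 1.25 for Cdkn1a and 0.75 for Bbc3. It was smaller for Bak1 (0.37) and Sesn2 (0.34). Counting intervals cover counting error only and did not overlap for 9 of the 10 genes, against 61.1% of all genes.

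**Figure D3:**
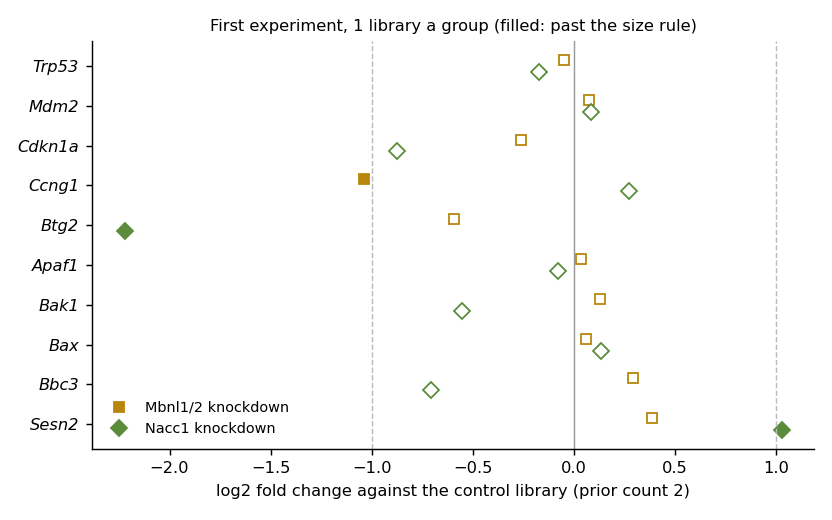
Log2 fold changes of the 10 genes against the single control library of the first experiment, for the Mbnl1 and Mbnl2 knockdown (squares) and the Nacc1 knockdown (diamonds). Filled points passed the size rule, whose limits are the dashed lines at -1 and 1: Ccng1 in the former, Btg2 and Sesn2 in the latter.

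Splicing of the 10 genes was read from the vast-tools tables, which give for each exon or intron how often it is kept in the mature transcript. Percent spliced in (PSI) was computed as the reads that support inclusion over all informative reads of the event. They list 22 cassette exons, 70 introns, 30 acceptor and 24 donor variants of these genes. Most exons varied little: of the 22, 10 were included at or near 100% in every library, and 7 were variable enough to be tested. None of the 7 was called in either knockdown (lowest edgeR adjusted p = 0.860 and 0.888), against 0.123% of 20266 exons after Srrm4 knockdown and 0 after Zfp871 knockdown. At an unadjusted p under 0.05 there were 0 and 1 of the 7. None of the 67 introns, 28 acceptors and 22 donors tested was called in either knockdown (limma). Over all events tested, calls after Srrm4 knockdown were 0.00327% of introns, 0.00348% of acceptors and 0.0148% of donors. After Zfp871 knockdown they were 0.00436%, 0.0104% and 0%. For 1 Apaf1 acceptor the adjusted p was under 0.05 in both contrasts, with a difference of 2.58 points, under the 10 points a call needs.

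The exons that differed most, in Bbc3 and Mdm2, both hold a start codon in GENCODE M21 (GRCm38), where they were identified by their own length and the lengths of both neighbouring introns. The Bbc3 exon of 289 nt (mm9 chr7:16897475-16897763) has 274 coding bases in transcript Bbc3-201, and the Mdm2 exon of 85 nt (mm9 chr10:117146756-117146840) has 81 in transcript Mdm2-201. The first coding bases in each exon are shown, with the start codon in capitals, since a transcript that skips the exon lacks them.
Bbc3: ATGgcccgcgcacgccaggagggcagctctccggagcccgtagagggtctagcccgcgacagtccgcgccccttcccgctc
Mdm2: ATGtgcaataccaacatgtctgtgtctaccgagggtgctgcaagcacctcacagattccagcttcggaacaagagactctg
PSI of the Bbc3 exon was 90.6% and 92.3% in the control, 77.8% and 76.3% after Srrm4 knockdown, and 93.9% and 74.5% after Zfp871 knockdown. The Srrm4 knockdown libraries were below both controls, with a mean difference of -14.4 points (unadjusted p = 0.0795, edgeR adjusted p = 0.860), and the authors' deposited table marks this exon as differential. It is the 1 exon of these genes so marked, against 0.815% of all exons, and after Zfp871 knockdown none was marked, against 0.662%. The Zfp871 knockdown libraries lay on both sides of the controls. In the first experiment the exon stood at 96.1% in the control, 86.4% after Mbnl1 and Mbnl2 knockdown and 89.7% after Nacc1 knockdown. The Mdm2 exon was at 90.3% and 92.2% in the control, 87.7% and 86.4% after Srrm4 knockdown and 85.5% and 83.2% after Zfp871 knockdown. All 4 knockdown libraries were below the controls, with mean differences of -4.20 and -6.92 points, and neither was called (edgeR adjusted p = 0.860 and 0.888).

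**Figure D4:**
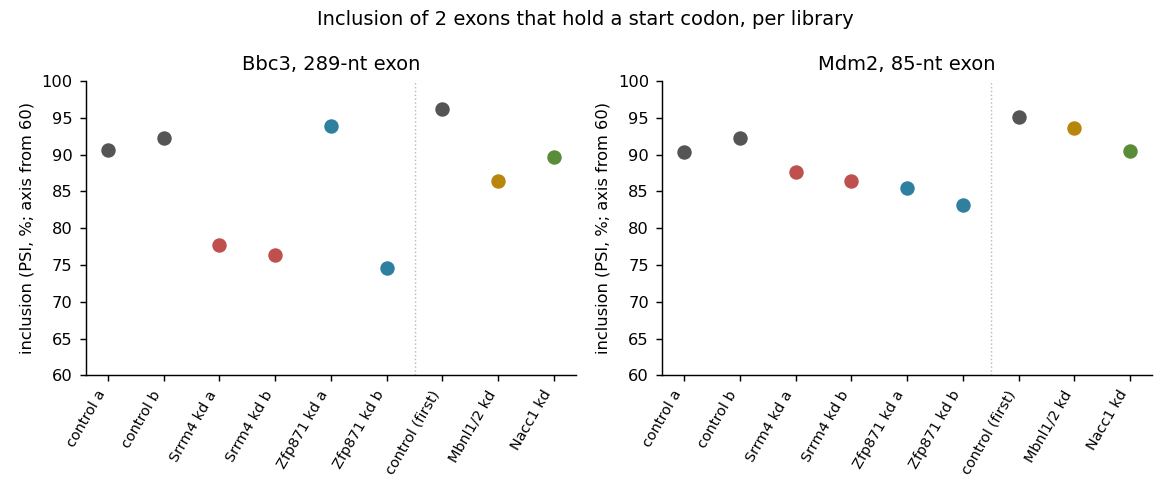
Inclusion (PSI, in percent, axis from 60 to 100) of the Bbc3 289-nt and Mdm2 85-nt exons in each library. The Bbc3 exon is lower in both Srrm4 knockdown libraries and in library b of the Zfp871 knockdown than in the second experiment's controls.

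Bak1, the gene that rose in both knockdowns, has a microexon in its 1091-nt intron (mm9 chr17:27158293-27159383). The vast-tools event is 15 nt long (mm9 chr17:27158608-27158622). GENCODE M21 has in the same intron, with the same donor, an exon of 20 nt whose acceptor lies 5 nt further upstream, and annotates its transcript, Bak1-201, as a target of nonsense-mediated decay. The exon is shown from that transcript, with the 15 nt of the vast-tools event in capitals, because reads that join at the outer acceptor need not count for the shorter event.
Bak1: gccagCAGCAACATGCACAG
No inclusion read of the 15-nt event was counted in the second experiment, with 42 and 71 reads in the control, 274 and 365 after Srrm4 knockdown and 158 and 187 after Zfp871 knockdown. A count of 0 allows a PSI of up to 7.14% and 4.23% in the control libraries and 1.09% and 0.822% in the Srrm4 knockdown. In the first experiment PSI was 2.02% in the control, with 83 reads, and no inclusion read was counted in the knockdowns.

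Retention of the 1091-nt intron was 7.50% and 7.39% in the control, 0.59% and 0.60% after Srrm4 knockdown and 0.32% and 1.98% after Zfp871 knockdown. All 4 knockdown libraries lay below both controls, and neither difference was called (limma adjusted p = 0.400 and 0.538). Reads over the upstream exon-intron boundary numbered 6 and 11 in the control and 3 and 4 after Srrm4 knockdown. After Zfp871 knockdown they numbered 1 and 6. Over the downstream boundary there were 0 in both control and both Srrm4 knockdown libraries, and 0 and 1 after Zfp871 knockdown. These percentages therefore rest on few reads, nearly all at the upstream boundary, and do not show that the whole intron was kept. In the first experiment Bak1 had 22.5 CPM in the control, 24.6 after Mbnl1 and Mbnl2 knockdown, with overlapping counting intervals, and 15.3 after Nacc1 knockdown. Retention there was 7.93% in the control, 7.18% after Mbnl1 and Mbnl2 knockdown and 8.75% after Nacc1 knockdown.

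Reads that join the 2 outer exons directly, skipping any microexon, can be set against the mean of the spliced reads over the 4 other introns of Bak1. This ratio was chosen after the values were seen and was not tested. In the control of the second experiment 36 and 67 reads joined the outer exons, or 18.3% and 46.0% of the mean of the other introns. After Srrm4 knockdown the reads numbered 246 and 320 (63.3% and 57.8%), and after Zfp871 knockdown 149 and 169 (50.6% and 48.7%). All 4 knockdown libraries were above both controls, and control library a was far below control library b. The libraries of the first experiment lay at 53.6% to 63.7%, as high as the knockdowns of the second, while their Bak1 level was 15.3 to 24.6 CPM. Srrm4 itself, the splicing regulator, was at 44.9 and 53.7 CPM in the Zfp871 knockdown, below both controls.

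**Figure D5:**
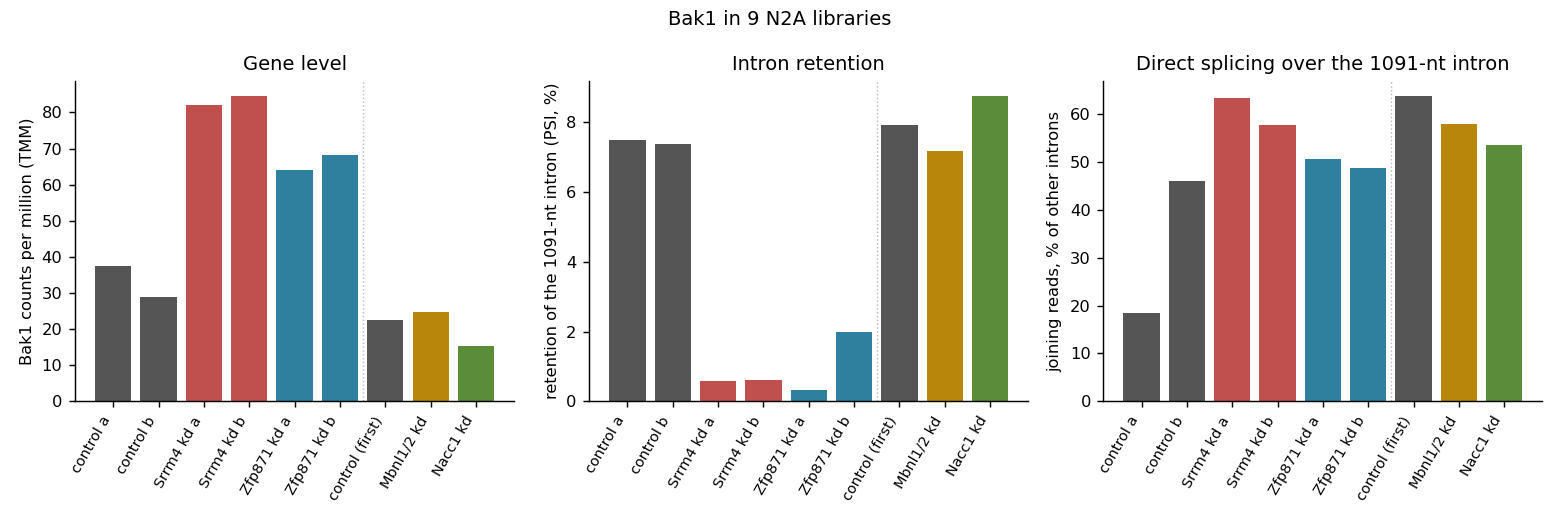
Bak1 in each library: gene level in CPM (left), retention of the 1091-nt intron as PSI in percent (middle) and reads that join the outer exons as percent of the mean over the other 4 introns (right), all bars from 0. In the second experiment the level is higher and the retention lower in all 4 knockdown libraries than in the controls; in the first experiment retention is 7.18% to 8.75% in all 3 libraries.

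Among the other introns, the 7700-nt intron of Apaf1 had a PSI of 3.36% and 3.76% in the control and 2.44% and 2.07% after Srrm4 knockdown. After Zfp871 knockdown it was at 9.10% and 13.6%. The reads numbered 77 and 55, 63 and 74, and 30 and 25 in the same order, so the last values rest on few reads. The difference after Zfp871 knockdown was not called (7.81 points, limma adjusted p = 0.376). The 1212-nt intron of Bbc3 ranged from 6.90% to 30.8% over the second experiment, with libraries a and b of the control at 9.08% and 30.4%, a spread within a group about as large as that between groups. This Bbc3 intron had 15 to 32 reads in each of those libraries. In the first experiment it was at 12% in the control (28 reads) and 24.2% after Mbnl1 and Mbnl2 knockdown (18 reads). After Nacc1 knockdown it was at 36.3% (15 reads), where the authors' deposited table marks it as differential. An Apaf1 acceptor that lies 66 nt from another site of its event was used at 77.8% and 54.8% in the control (36 and 31 reads). After Srrm4 knockdown it was used at 48.9% and 51.5% (47 and 33 reads; -16.1 points, limma adjusted p = 0.946).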

How the data were processed

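PolyA RNA-seq of 9 N2A libraries was analysed from the deposited tables. The submitters' processing notes name the build mm9, CASAVA 1.8 and edgeR, without their roles; the sources used here do not give the read counter, the aligner or the vast-tools version. Per the file headers, the gene tables hold, for each gene, unnormalised read counts, the authors' corrected RPKM (cRPKM), the authors' log2 fold changes and, for the second experiment, FDR values (adjusted p-values) from edgeR, whose settings are not stated. The primary vast-tools tables hold a quality cell per library with the corrected inclusion and exclusion reads, per the file headers, from which PSI was computed; the filtered tables hold PSI in percent and the authors' TRUE or FALSE call, whose rule is not stated. Of the per-sample columns, 17 were not used: a trimmed version of control library a, the deposited PSI of the primary tables and the second experiment's cRPKM per library.

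The count test was the quasi-likelihood test of edgeR 4.0.16 in R 4.3.3 (genes kept by filterByExpr, TMM scaling, 1 fit to the 6 libraries of the second experiment, no block), with Benjamini-Hochberg adjustment over all 12378 genes tested and a threshold of 0.05. Exons with at least 10 reads in all 6 libraries and a PSI of 2 to 98 in 1 of them were tested with edgeR on inclusion and exclusion reads, and introns and splice sites with limma 3.58.1 on logit PSI (offset 1). A splicing call also needed 10 points. For the first experiment the prior count was 2; intervals are 95% exact Poisson and cover counting error only. The limit of a count of 0 is 3 reads of the total. On simulated counts the gene test recovered 94% of 100 genes changed 2-fold and 100% of 100 changed 4-fold, with 9 unchanged genes called. The exon test recovered 94% of 200 exons shifted by 30 points, with 15 unchanged exons called. The shifted exons had an intermediate PSI and at least 50 reads in every library. The 7 exons tested here had a higher PSI, some with fewer reads, so that recovery does not carry over to them.

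The letters a and b are those of the columns; the labels number the replicates, and no source ties number to letter. The genes, lists, tests and alternatives were chosen with earlier results of these data known. All 10 genes were named in the comparisons of gene levels. Genes of the other lists (p53 targets, p53 regulators, BCL2 family, BH3-only genes, apoptosome and caspases, relatives, and markers of sympathetic, glial, mesenchymal, immune and epithelial cells) were named where called or past the size rule, or were among the 3 with the largest change in a list with no call; exons and introns were named where among the 3 with the largest difference. Some results of genes in the other lists are not reported here. Further genes, and the Bak1 microexon and junctions, were named after their values were seen. Epithelial markers summed to 25.1 to 40.4 CPM. Promoter sequences are from RefSeq and exon sequences from GENCODE transcripts; coordinates of mm9 and GRCm38 were not converted.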

Additional observations from a re-analysis of the deposited data

How the results depend on the processing

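In the second experiment, the log2 fold changes of the 10 genes over 3 contrasts were recomputed under 360 alternatives in all; 289 kept direction and call, 39 lost the call, 21 gained one and 11 turned direction, the last all in genes not called. Genes called of the 10 (Srrm4 knockdown, Zfp871 knockdown, direct contrast) were 2, 3 and 3. With a replicate block for the column letter they were 6, 6 and 6, while all genes called went from 582, 358 and 1374 to 4565, 3854 and 5191. Same-lettered libraries deviated together (correlations of 0.749, 0.662 and 0.637 over genes), but no source says that a letter marks a shared day or culture. The block called Cdkn1a after both knockdowns (0.73, edgeR adjusted p = 0.00023; 0.62, edgeR adjusted p = 0.0014) and Btg2 after neither (edgeR adjusted p = 0.0905 and 0.251). DESeq2 1.42.0 called 4, 4 and 4 (of all genes 1750, 1350 and 2430) and, added after seeing the data, edgeR's likelihood ratio test 4, 3 and 4 (of all genes 1260, 905 and 1880). RLE factors gave 2, 3 and 3 and no filter 3, 3 and 3. With only the 4 libraries compared they were 0, 2 and 3 (of all genes 0, 178 and 1172). In that fit's direct contrast Bbc3 was called and Ccng1 was not. DESeq2, the likelihood ratio test and the replicate block also called Bbc3 in the direct contrast, and the block called Trp53 there too. Leaving out 1 library gave 0 to 2, 0 to 2 and 0 to 3 genes (of all genes 0 to 180, 0 to 211 and 0 to 1179), the lone library of a group then being taken to vary like the others. The called log2 fold changes kept their sign throughout. Over the alternatives that leave out 1 library, the changes that turned sign ranged from -0.16 to 0.034 (Trp53) and -0.25 to 1.42 (Btg2) after Srrm4 knockdown, from -0.032 to 0.35 (Trp53), -0.37 to 1.31 (Btg2) and -0.65 to 0.12 (Bbc3) after Zfp871 knockdown, and from -0.50 to 0.25 (Cdkn1a) and -0.51 to 0.27 (Btg2) in the direct contrast. In the first experiment, scaling by total counts left 0 of the 10 past the size rule after Mbnl1 and Mbnl2 knockdown, and a 1.5-fold rule gave 2 there and 4 after Nacc1 knockdown. No alternative called an exon of these genes, the replicate block included; with 1 dispersion per exon, added after seeing the data, the lowest adjusted p (edgeR) was 0.690 and 0.104, and 162 and 90 of all exons were called. The cause of these differences was not tested.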

Other observations

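Other p53 pathway genes, outside the 10, were spread over several levels. Zmat3 had 67.5 CPM in the control of the first experiment, 82.9 after Mbnl1 and Mbnl2 knockdown and 92.9 after Nacc1 knockdown. In the second experiment it had 43.2 and 60.6 CPM in the control, 49.0 and 59.1 after Srrm4 knockdown and 37.6 and 47.7 after Zfp871 knockdown, with overlapping groups. Mdm4, the partner of Mdm2 in holding p53 in check, had 24.8 and 32.9 CPM in the control, 28.6 and 32.9 after Srrm4 knockdown and 22.6 and 20.6 after Zfp871 knockdown. Its 2 Zfp871 knockdown libraries were below all others, and no contrast was called (edgeR adjusted p = 0.770, 0.215 and 0.0968). These genes were named after their values were seen.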
